A study of Mus musculus with 24 samples.

Results

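Interferon-stimulated genes are the genes that cells switch on when interferons bind their receptors. A list of 50 such genes was followed in the hippocampus of mice that drank corticosterone. For 48 of the 50 members, out of 23787 genes with a matched probe on the arrays, signal was read from the brightest probe of the gene. Mx1 and Mx2 could not be matched to a probe and were not analysed here. The study asked how an overnight rise in corticosterone changes hippocampal RNA, and how these changes decay during the rest that follows. The paper reports that blood corticosterone of treated mice was still raised in the first hour of light and had returned to baseline in the fifth. Male Swiss-Webster mice aged 12 weeks drank either corticosterone at 100 µg/ml or its vehicle through a dark phase of 12 h, and both solutions held 0.45% hydroxypropyl-β-cyclodextrin, a sugar ring that keeps steroids in solution. Whole hippocampi were taken in the first, the fifth or the ninth hour of the light phase that followed. The arrays hold 6 groups of 8 animals, 48 animals in all, which were picked from larger groups for the quality of their RNA. Treated animals had brothers among the controls and each group drew on several litters, but the labels do not name the litters, so litter could not be modelled and animals of a litter are not independent. Each of the 24 arrays held RNA of 1 control animal, labelled with Cy3, and 1 corticosterone-treated animal, labelled with Cy5.

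Type I interferons act through a receptor whose Janus kinases phosphorylate STAT2, which joins IRF9 in a factor that binds the interferon-stimulated response element in the promoters of their targets. Interferon gamma acts through gamma-activated sites and raises IRF1 and, with it, many guanylate-binding proteins and immunity-related GTPases. In the brain, microglia, endothelial cells, astrocytes and neurons all respond, and glucocorticoids such as corticosterone are known as inhibitors of many inflammatory genes.

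The promoters of 6 members are shown because these members carry the patterns described below: Isg15, Oas1a and Ifit1 stood out in the same animals, Gbp2 and Gbp3 were lower with corticosterone at more than 1 hour, and Irf1 was the member called higher. Each run covers 300 bases, from 250 before to 50 after the start of the gene, 5′ to 3′ along the gene, from RefSeq on build GRCm38.p6. Capitals mark the letters of the interferon-stimulated response element core GAAANNGAAA and of the gamma-activated site TTCNNNGAA, searched on both strands. The runs lie at chr4:156200769-156201068 on the minus strand for Isg15, chr5:120907476-120907775 on the minus strand for Oas1a, chr19:34640639-34640938 on the plus strand for Ifit1, chr3:142620413-142620712 on the plus strand for Gbp2, chr3:142559794-142560093 on the plus strand for Gbp3 and chr11:53769764-53770063 on the plus strand for Irf1.
Isg15: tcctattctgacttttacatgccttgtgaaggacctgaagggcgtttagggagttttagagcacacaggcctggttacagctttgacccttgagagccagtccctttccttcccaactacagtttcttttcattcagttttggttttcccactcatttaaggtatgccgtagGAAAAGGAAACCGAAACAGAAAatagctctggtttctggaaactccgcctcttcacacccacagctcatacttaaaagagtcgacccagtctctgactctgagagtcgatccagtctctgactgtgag
Oas1a: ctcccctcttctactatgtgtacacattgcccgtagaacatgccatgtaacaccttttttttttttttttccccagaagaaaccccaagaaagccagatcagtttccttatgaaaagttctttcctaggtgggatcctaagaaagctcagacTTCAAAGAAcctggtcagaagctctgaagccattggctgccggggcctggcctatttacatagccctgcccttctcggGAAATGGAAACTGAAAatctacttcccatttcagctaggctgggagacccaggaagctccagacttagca
Ifit1: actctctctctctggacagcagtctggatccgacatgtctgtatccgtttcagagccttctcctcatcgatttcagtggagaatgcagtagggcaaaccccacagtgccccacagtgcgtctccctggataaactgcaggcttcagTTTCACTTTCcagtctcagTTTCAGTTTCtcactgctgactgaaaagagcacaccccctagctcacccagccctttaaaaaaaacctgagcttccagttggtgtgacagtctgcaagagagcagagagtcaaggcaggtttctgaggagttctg
Gbp2: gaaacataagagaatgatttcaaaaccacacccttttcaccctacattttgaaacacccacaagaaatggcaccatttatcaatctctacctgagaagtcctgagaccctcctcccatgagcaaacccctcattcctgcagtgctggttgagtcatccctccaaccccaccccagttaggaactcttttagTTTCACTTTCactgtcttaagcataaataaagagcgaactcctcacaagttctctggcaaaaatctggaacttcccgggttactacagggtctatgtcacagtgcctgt
Gbp3: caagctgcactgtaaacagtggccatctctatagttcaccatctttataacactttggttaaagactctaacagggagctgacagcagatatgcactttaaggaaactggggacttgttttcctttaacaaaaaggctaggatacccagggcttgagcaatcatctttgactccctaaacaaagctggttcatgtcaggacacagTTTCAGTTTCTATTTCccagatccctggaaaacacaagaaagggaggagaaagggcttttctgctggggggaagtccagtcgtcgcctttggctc
Irf1: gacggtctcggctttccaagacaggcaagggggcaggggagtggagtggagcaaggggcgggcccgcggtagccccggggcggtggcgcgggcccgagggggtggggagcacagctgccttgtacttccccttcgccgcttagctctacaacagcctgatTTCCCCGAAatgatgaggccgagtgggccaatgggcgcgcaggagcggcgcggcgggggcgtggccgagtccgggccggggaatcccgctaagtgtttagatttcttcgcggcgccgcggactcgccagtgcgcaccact

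Isg15 held 3 matches to the response element core, Oas1a, Ifit1 and Gbp3 held 2 each and Gbp2 held 1, whereas Irf1 held 0 of these and 1 gamma-activated site. Gbp3 and Irf1 each have a further start, whose promoter is not shown and held 0 matches to either. Of the 36 members in the promoter table, 19 held the response element core (52.8%) in any of their promoters, against 3.99% of the 27025 genes of the table. The 29 matches began between 222 bases before the start (-222) and 32 after it, with the middle one at -53. By role, the core was found for 5 of 5 guanylate-binding proteins and immunity-related GTPases in the table, 3 of 3 sensors, 3 of 4 direct antiviral effectors, 2 of 3 IFIT genes, 2 of 4 OAS genes, 1 of 1 ISG15 conjugation gene and 1 of 2 chemokines. It was found for 1 of 4 transcription factors, 1 of 4 TRIM and PARP genes, 0 of 5 other interferon-induced genes and 0 of 1 antigen presentation gene. The gamma-activated site was found for 9 of 36 members (25%), against 9.55% of all genes of the table, and among these were Irf1, Oas1a, Gbp7 and Igtp. A glucocorticoid response element, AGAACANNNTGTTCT, was found for 0 of 36 members and 0.0111% of all genes. Only 3 of 27025 genes held this exact pattern, so the 0 cannot tell the members from other genes. Dhx58, Zbp1, Oas2, Mx1, Mx2, Gbp4, Iigp1, Usp18, Tap2, Nlrc5, Parp9, Parp14, Ifi27 and Rtp4 were not in the table. A match is a description of the letters in this window and was not tested for function.

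Values are normalized signal intensities without unit, and each group of 8 animals is given by its lowest, median and highest animal. The arrays of an hour are numbered 1 to 8. Before correction, 60.8 to 67.2% of Cy3 spots and 64.0 to 73.5% of Cy5 spots were well above background. Of the 48 measured members, 40 had a mean intensity of 50 or more, and Dhx58, Zbp1, Oas3, Oasl1, Usp18, Cxcl9, Nlrc5 and Ifi44 were dimmer. Oas3 was not well above background in any of the groups, and Cxcl9 was well above background in 1 first-hour control animal and in none of the others. The number of arrays limits the precision. Because corticosterone was always in Cy5, a constant difference between the dyes and an effect of corticosterone at an hour cannot be told apart, while such a difference cancels between hours.

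The treatment itself was followed in a list of corticosterone-responsive genes, which was chosen with results of these data known and so is no test of the treatment. All 9 genes of it were higher in treated animals at the first hour (limma, adjusted p under 0.05), 6 were higher and 0 lower at the fifth hour, and 2 were higher and 4 lower at the ninth hour. Plin4, which coats lipid droplets, was higher by 3.47 (log2 fold change, adjusted p = 3.0e-19, limma, 8 of 8 arrays) at the first hour and by 2.53 (adjusted p = 1.9e-13, 8 of 8) at the fifth. Sult1a1, a sulfotransferase, was higher by 2.09 (adjusted p = 6.0e-21, limma, 8 of 8 arrays) at the first hour.

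Before the comparisons, single animals have to be named, because the interferon-stimulated genes stood apart in them. In the control animal of first-hour array 8, 21 of the 40 brighter members lay over 1 log2 unit above their group's median, and this animal was the highest of 8 for 39 of the 40. Over all probes of this intensity, 0.194% lay as far above the median in that animal. In the control animal of ninth-hour array 8, 19 of 40 members lay over 1 log2 unit above the median and 35 were the highest of 8, against 0.215% of all probes of this intensity. Among treated animals, those of fifth-hour arrays 1 and 2 had 8 and 12 members over 1 log2 unit above the median (0.165 and 0.2% of probes), and those of fifth-hour array 8 and ninth-hour array 7 had 3 each, and these animals were the highest of 8 for 7, 25, 6 and 19 members. The controls of fifth-hour arrays 5 and 7 had 5 and 4 such members and were the highest of 8 for 18 and 15, and the control of ninth-hour array 4 had 4 and was the highest for 4. The treated animal of first-hour array 4 had only 2 such members but was the highest of 8 for 19. No other animal had more than 1, though the treated animals of ninth-hour array 4 and first-hour array 8 were the highest for 15 and 13. In the controls of first-hour and ninth-hour array 8, the median deviation was 1.04 and 0.95 over the 40 members and 0.001 and -4e-04 over all probes of this intensity. On fifth-hour array 7 the latter was 0.11 in the control and 0.12 in the treated animal, and on all other arrays it lay between -0.02 and 0.01. That array also had the most outlier spots, 276, and the lowest share of Cy5 spots well above background, 64.0%. First-hour array 8 had the highest median Cy5 intensity before correction (185) and the highest share of Cy5 spots well above background (73.5%). In its treated animal, 0.318% of all probes of this intensity lay over 1 log2 unit above the median, the largest such share.

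**Figure D1:**
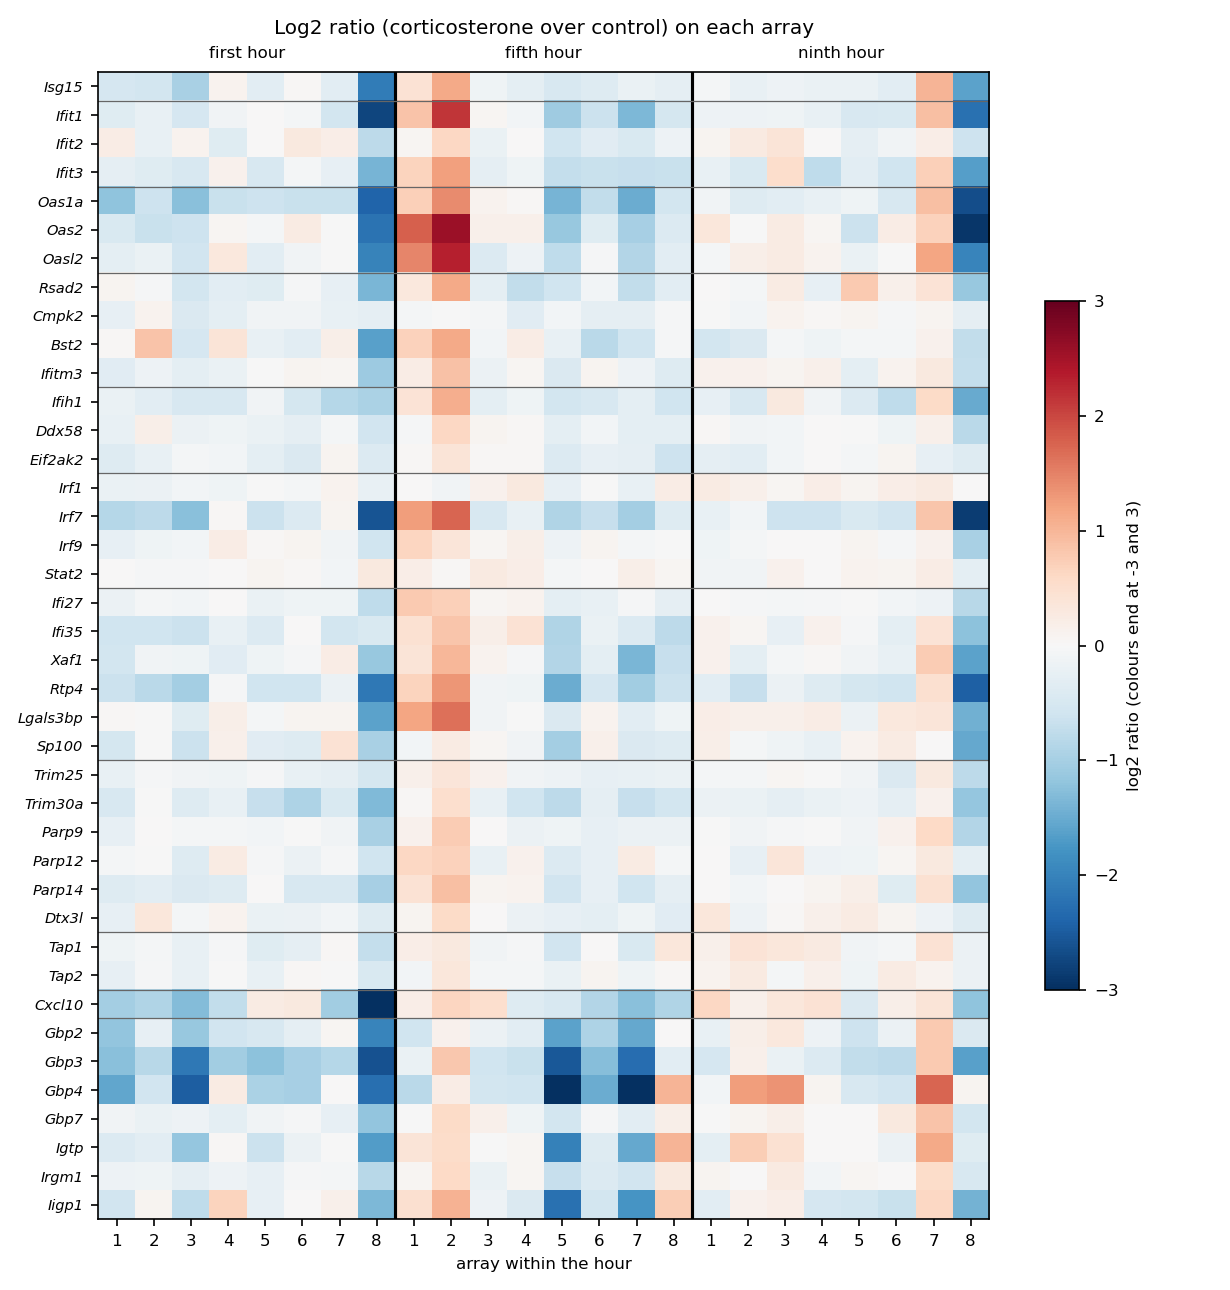
Log2 ratio of corticosterone over control for the 40 members with a mean intensity of 50 or more (vertical axis, grouped by role) on each of the 24 arrays (horizontal axis, 8 per hour), blue for lower and red for higher, with colours ending at -3 and 3. First-hour array 8 and ninth-hour array 8 are blue over most members (median ratios -1.10 and -0.93), and fifth-hour array 2 is red (0.71).

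The animals did not all stand apart in the same genes. For the 7 brighter members among the IFIT genes, the OAS genes and Isg15, the controls of first-hour array 8 and ninth-hour array 8 lay 2.03 and 1.99 log2 units (median gene) above their groups' medians, and the treated animals of fifth-hour arrays 1 and 2 lay 1.35 and 1.84 above. For the 7 guanylate-binding proteins and immunity-related GTPases, the first 2 of these animals lay 1.22 and 1.19 above, whereas the treated animals of fifth-hour arrays 1 and 2 lay only 0.20 and 0.37 above. The controls of fifth-hour arrays 5 and 7 showed the opposite order, with 1.25 and 1.04 for the guanylate-binding proteins and immunity-related GTPases and 0.30 and 0.29 for the IFIT, OAS and Isg15 genes. The control of ninth-hour array 4 was similar to the latter, at 1.04 and 0.36. This joining of 3 roles into one set of 7 genes was chosen after the values were seen, and no test was made of it.

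**Figure D2:**
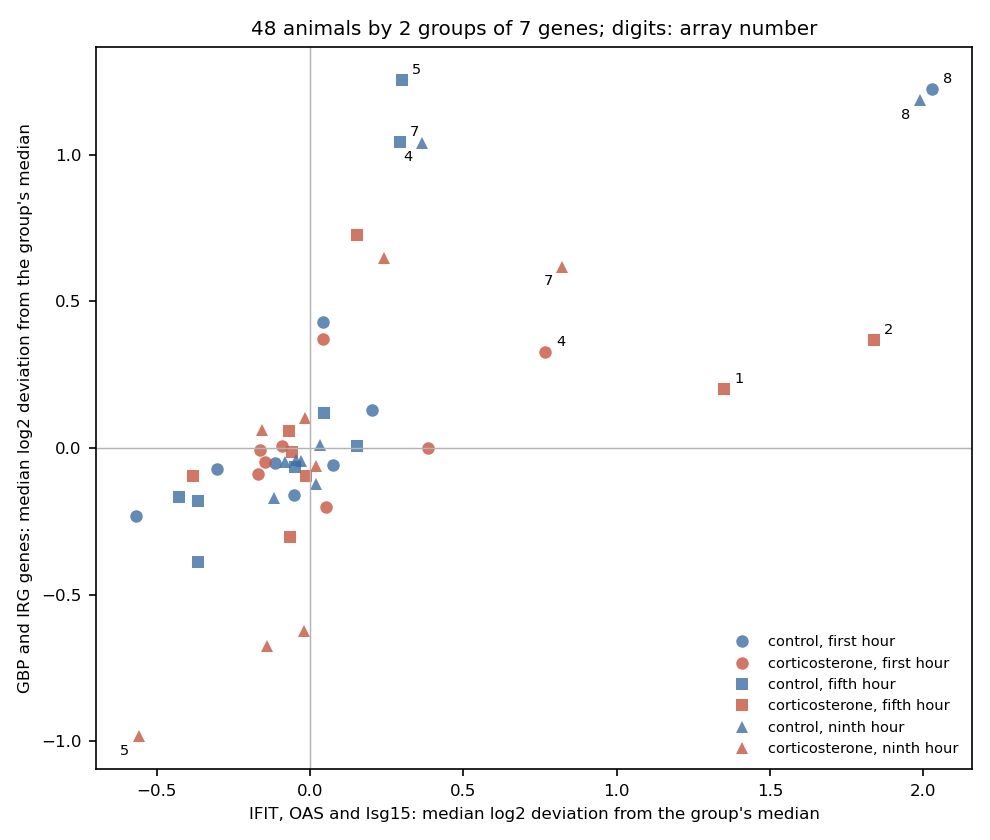
Each of the 48 animals by its median log2 deviation from its group's median over 7 IFIT, OAS and Isg15 genes (horizontal axis) and over 7 guanylate-binding proteins and immunity-related GTPases (vertical axis); colours give the treatment, shapes the hour and digits the array. The first-hour and ninth-hour controls of array 8 are high on both axes (2.03 and 1.22, 1.99 and 1.19), the treated animals of fifth-hour arrays 1 and 2 on the horizontal axis, and the fifth-hour controls of arrays 5 and 7 on the vertical axis.

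At the first hour, corticosterone-treated animals had less RNA from 12 of the 48 measured members than control animals, and from 0 members had they more (limma, adjusted p under 0.05). At an unadjusted p under 0.05, these counts were 25 and 0. Among all 56605 probes, 8.67% were called lower and 8.84% higher. Brighter probes were called more often. Among those with a mean intensity of 50 or more, tested alone, 24.3% were called in either direction, and 50.7% of these calls were higher. Of the 40 members of that intensity, 11 were called lower. The log2 fold change was below 0 for 46 of 48 members, with a median of -0.28, whereas the median of all probes was -9e-04 and 50.2% of them were below 0. In whole hippocampus, fewer responding cells and less RNA per cell cannot be told apart. The genes called were spread over the roles, with Gbp2 and Gbp3 of 7 guanylate-binding proteins and immunity-related GTPases, Ifih1 and Dhx58 of 5 sensors, Trim30a and Parp14 of 6 TRIM and PARP genes, Ifi35 and Rtp4 of 7 other genes, and Oas1a, Isg15, Cxcl10 and Cmpk2 of theirs. The roles without a call were the transcription factors, the IFIT genes and antigen presentation. Without array 8 the count was 4 (Dhx58, Cmpk2, Gbp3 and Trim30a) and the members' median was -0.16. Without array 3 the count was 6, and with slides 1, 2 and 3 left out in turn it was 7, 3 and 3. The share of all probes called in either direction was 17.5% with all arrays and 11.6, 8.05 and 9.41% without these slides.

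The guanylate-binding proteins are GTPases that coat and break the membranes around intracellular microbes. Gbp3 had a signal of 184, 218 and 748 (lowest, median, highest) in control animals and of 71.7, 101 and 127 in treated animals. The groups did not overlap, and the highest control was that of array 8. This gave a log2 fold change of -1.37 ± 0.26 (SE, n = 8, limma, adjusted p = 3.4e-04, lower on 8 of 8 arrays), and without array 8 it was -1.19 (adjusted p = 0.00225). Gbp2 had a signal of 132, 163 and 379 in controls and of 79.5, 111 and 149.9 in treated animals. Again the control of array 8 was the highest and the groups overlapped, and the log2 fold change was -0.73 ± 0.20 (limma, adjusted p = 0.0118, lower on 7 of 8 arrays), and without array 8 it was -0.55 with an adjusted p of 0.0694. For Gbp4, signals of 68.7, 114 and 188 in controls stood beside 27.4, 49.8 and 126 in treated animals, and a log2 fold change of -1.07 did not pass the test (limma, adjusted p = 0.124, lower on 6 of 8 arrays). The remaining genes of the family, Gbp7 and the immunity-related GTPases Igtp, Irgm1 and Iigp1, had log2 fold changes from -0.54 (Igtp) to -0.23 (Irgm1) and none passed, and without array 8 these were -0.16 for Gbp7, -0.38 for Igtp, -0.15 for Irgm1 and -0.10 for Iigp1.

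ISG15 is a small protein that is joined to other proteins as ubiquitin is, and OAS1A makes the second messenger that activates RNase L, which cuts RNA in infected cells. For Isg15, controls had a signal of 301, 446 and 1482 and treated animals one of 259.8, 314 and 541. The control of array 8 was far above the next control, at 553. Treated animals were lower by a log2 fold change of -0.58 ± 0.21 (limma, adjusted p = 0.0466, lower on 6 of 8 arrays), and without array 8 it was -0.36 (adjusted p = 0.205). This call was also lost without first-hour arrays 1, 2, 3, 5 or 7, fifth-hour arrays 3, 4, 5 or 8 or ninth-hour arrays 1 to 6, with adjusted p from 0.0508 to 0.113 among these, and with the slide as a block (0.0508). Oas1a had a signal of 78.5, 120.3 and 512 in controls and of 49.8, 61.5 and 96.8 in treated animals. Apart from the control of array 8, the highest control had 138, and the log2 fold change was -1.01 ± 0.29 (limma, adjusted p = 0.0211, lower on 8 of 8 arrays), and without array 8 it was -0.81 (adjusted p = 0.0811). Usp18, which removes ISG15 from proteins, was dim and had a log2 fold change of -0.78 (limma, adjusted p = 0.0648, lower on 8 of 8 arrays), and it passed without ninth-hour array 8 (adjusted p = 0.0309). Without first-hour array 8 the value of Usp18 was -0.59 (limma, adjusted p = 0.231).

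**Figure D3:**
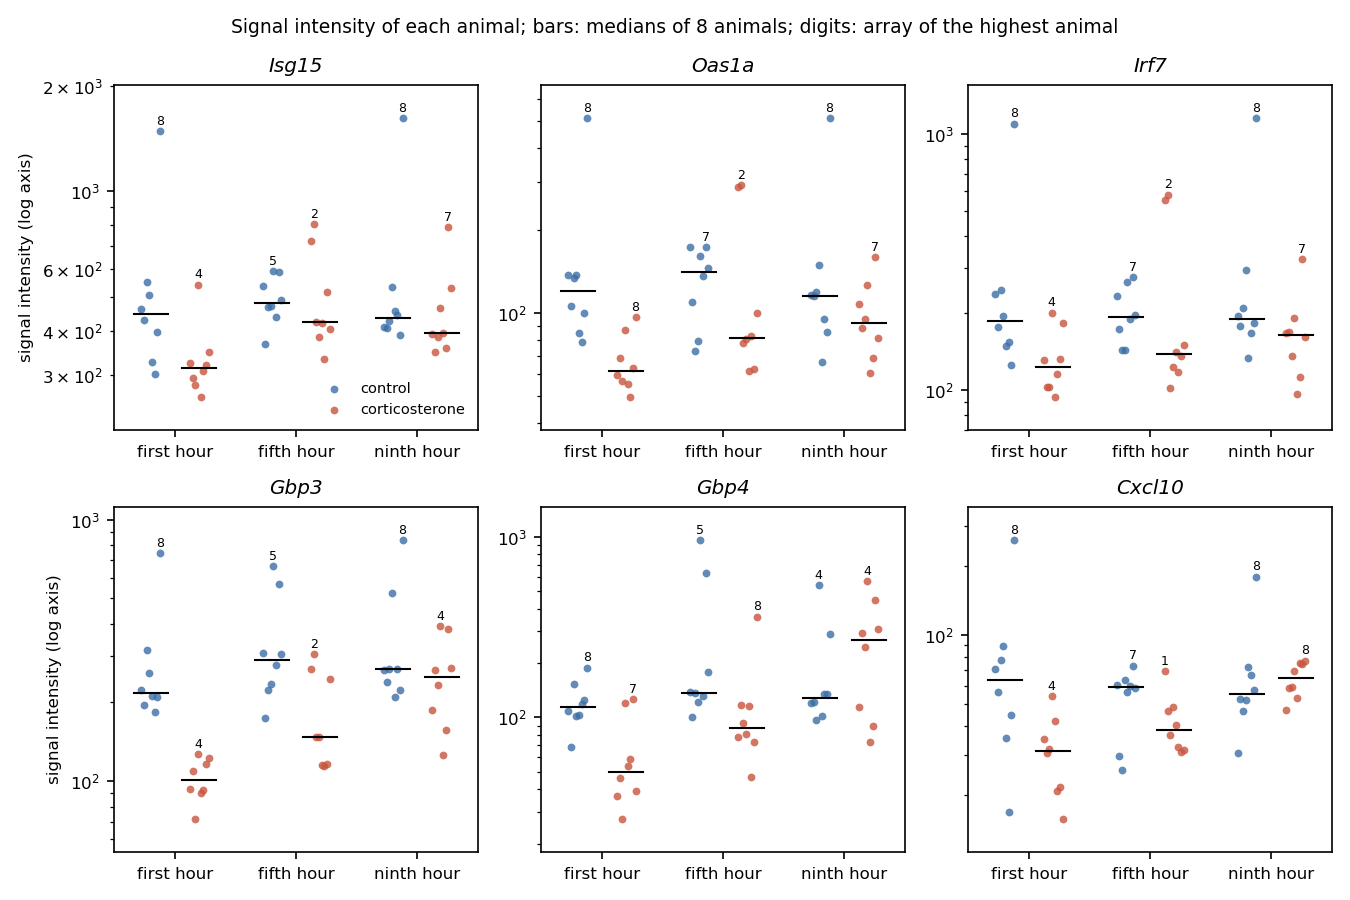
Signal intensity (log axis) of each animal for Isg15, Oas1a, Irf7, Gbp3, Gbp4 and Cxcl10 at the 3 hours, with controls in blue, treated animals in red, bars at the medians of 8 animals and digits for the array of the highest animal. For Isg15 the control of array 8 reaches 1482 at the first and 1617 at the ninth hour, against medians of 446 and 434.

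MDA5, the product of Ifih1, and LGP2, that of Dhx58, are sensors of double-stranded RNA. Ifih1 had a signal of 77.7, 84.7 and 163 in controls and of 47.3, 64.3 and 84.1 in treated animals, and the animals of array 8 were the highest of both groups. From these came a log2 fold change of -0.49 ± 0.16 (limma, adjusted p = 0.0349, lower on 8 of 8 arrays). The call was lost without first-hour arrays 3, 4, 6, 7 or 8, with adjusted p from 0.0585 to 0.09 and -0.43 without array 8. Dhx58, with a mean intensity of 47.7, had a log2 fold change of -0.67 (limma, adjusted p = 0.00294, lower on 8 of 8 arrays), and no array left out ended this call. Eif2ak2, which encodes the RNA-dependent kinase PKR, had a signal of 123, 161 and 221 in controls and of 119, 129 and 166 in treated animals, with a log2 fold change of -0.22 (limma, adjusted p = 0.0564, lower on 7 of 8 arrays), and it passed without first-hour array 7 or fifth-hour arrays 2 or 8 (adjusted p from 0.0344 to 0.048).

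Cxcl10 encodes a chemokine that draws T cells. It was well above background in 6 control and 5 treated animals, with a signal of 16.8, 63.7 and 259.6 in controls and of 15.7, 31.1 and 53.97 in treated animals. The control of array 8 was the highest and the lowest controls lay among the treated animals. With all arrays the log2 fold change was -1.06 ± 0.29 (limma, adjusted p = 0.00683, lower on 6 of 8 arrays), and without array 8 it was -0.63 (adjusted p = 0.0632). Cmpk2, a mitochondrial nucleotide kinase, had a signal of 849, 949 and 1059.6 in controls and of 733, 800.4 and 986 in treated animals. Here the highest control was again that of array 8, yet it lay near the next one, at 996. This small difference had a log2 fold change of -0.20 ± 0.06 (limma, adjusted p = 0.00978, lower on 7 of 8 arrays), and the adjusted p was 0.0521 without array 3 (-0.16).

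TRIM30A, an inhibitor of inflammatory signalling, and the ADP-ribosyltransferase PARP14 were lower too. Trim30a had a signal of 58.2, 71.4 and 152 in controls and of 42.4, 53.95 and 63.3 in treated animals. The groups overlapped at their edges, and the log2 fold change was -0.57 ± 0.14 (limma, adjusted p = 0.00234, lower on 8 of 8 arrays), and without array 8 it was -0.46 (adjusted p = 0.0119). Parp14 had a signal of 118, 141 and 293 in controls and of 91.1, 117 and 148 in treated animals, both highest on array 8. Treated animals were lower by a log2 fold change of -0.43 ± 0.15 (limma, adjusted p = 0.0347, lower on 7 of 8 arrays), and the call was lost without first-hour arrays 1, 2, 3, 4, 6, 7 or 8, with adjusted p from 0.0502 to 0.0934 and -0.35 without array 8. A dimmer probe of Parp14, with a mean intensity of 32.5, had -0.15 (adjusted p = 0.34).

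Rtp4, a chaperone of membrane receptors, had a signal of 198, 275 and 1091 in controls and of 145, 171 and 260.1 in treated animals. The highest control was that of array 8, and the next one had 324. Over all arrays the log2 fold change was -0.75 ± 0.25 (limma, adjusted p = 0.034, lower on 8 of 8 arrays), and the call was lost without first-hour arrays 1, 2, 3, 6 or 8, with adjusted p from 0.053 to 0.122 and -0.56 without array 8. Ifi35, which binds NMI, had a signal of 281, 415 and 555 in controls and of 197, 288 and 407 in treated animals. The animals of array 8 were the highest of both groups, so that their ratio was near the others. Ifi35 had a log2 fold change of -0.43 ± 0.16 (limma, adjusted p = 0.0449, lower on 7 of 8 arrays). This call was lost without first-hour arrays 1, 2, 3, 4, 5, 7 or 8, fifth-hour array 6 or ninth-hour arrays 2, 5 or 6, with adjusted p from 0.0506 to 0.101, and with the slide as a block (0.0537), and a dimmer probe had -0.33 (adjusted p = 0.0986).

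Irf7, the factor that amplifies type I interferon, did not pass the test, though its signal was 125, 186 and 1098 in controls and 94.0, 123 and 200.3 in treated animals. Its log2 fold change was -0.81 with a standard error of 0.32 (limma, adjusted p = 0.0839, lower on 6 of 8 arrays), and it passed without ninth-hour array 8 (0.0454). Without first-hour array 8 the value of Irf7 was -0.55 (limma, adjusted p = 0.27). Ifit1, an RNA-binding protein that blocks translation, had 36.8, 56.6 and 238 in controls and 35.0, 44.2 and 75.2 in treated animals, with a log2 fold change of -0.57 (limma, adjusted p = 0.164, lower on 7 of 8 arrays) and of -0.26 without array 8. Trim25, a ubiquitin ligase of RNA sensing, had 1196, 1342 and 2123 in controls and 1119.6, 1233 and 1463 in treated animals, and its -0.19 (limma, adjusted p = 0.0921, lower on 8 of 8 arrays) passed without ninth-hour array 8 (0.0454). It was -0.14 without first-hour array 8 (limma, adjusted p = 0.204). For these 3 genes the control of array 8 was the highest of 8.

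**Figure D4:**
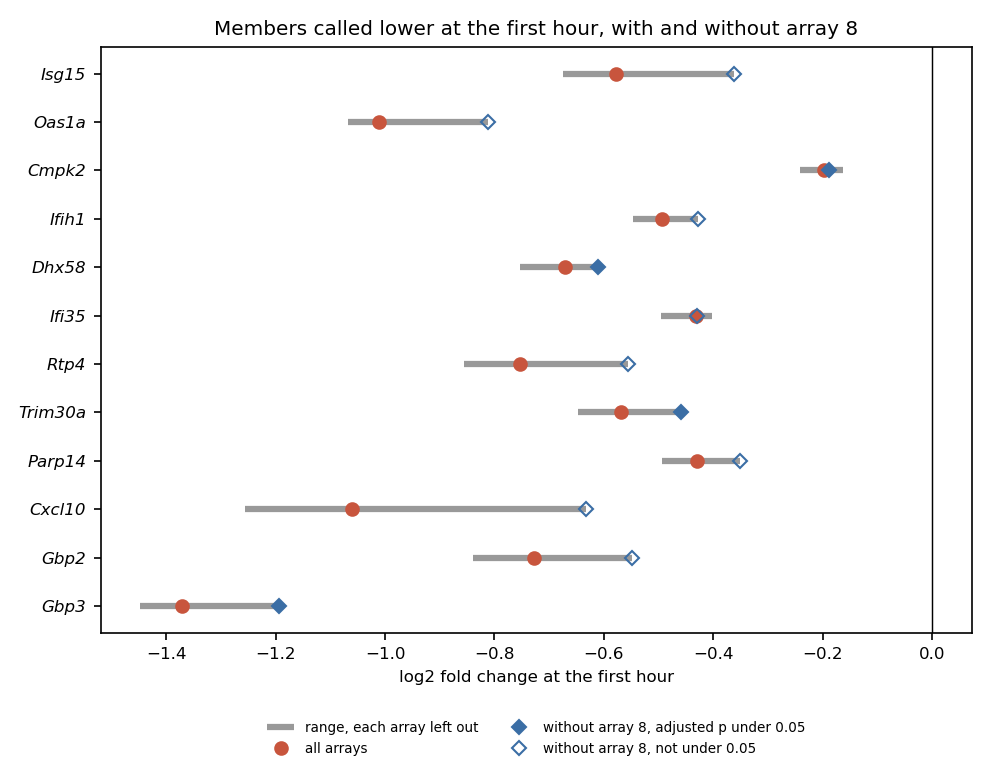
Log2 fold change at the first hour (horizontal axis) of the 12 members called lower, with all arrays (red dots), without array 8 (diamonds, filled where the adjusted p was still under 0.05) and the range over each array left out (grey bars). Dhx58, Cmpk2, Gbp3 and Trim30a have filled diamonds, and the values of Isg15 and Cxcl10 go from -0.58 to -0.36 and from -1.06 to -0.63.

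The 3 slides held 2, 3 and 3 of the first-hour arrays, and the direction of the 12 genes was the same on each. Gbp3 had mean log2 ratios of -1.05, -1.48 and -1.48 on slides 1, 2 and 3, Oas1a had -0.92, -0.84 and -1.24, and Trim30a had -0.25, -0.44 and -0.91. With the slide as a block, the adjusted p was 3.7e-04 for Gbp3, 0.0189 for Oas1a and 0.00258 for Trim30a (limma).

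At the fifth hour, 3 guanylate-binding proteins were lower in treated animals, and Irf7, Oas1a and Isg15 were high in the treated animals of arrays 1 and 2. Of the 48 members, 4 were called lower (Gbp2, Gbp3, Gbp4 and the dim Zbp1) and 0 higher (limma, adjusted p under 0.05), with 6 lower and 1 higher at an unadjusted p under 0.05. Among all probes, 9.47% were called lower and 8.62% higher, so that the members' count was not above that background. Of probes with a mean intensity of 50 or more, tested alone, 23.6% were called in either direction, and 46.7% of these calls were higher. Of the 40 members of that intensity, 3 were called lower. The members' median was -0.10, with 36 of 48 below 0, against 0.001 over all probes, and it was -0.02 without array 5, -0.05 without array 7 and -0.21 without array 2. For the 7 guanylate-binding proteins and immunity-related GTPases the median was -0.36 and 7 were below 0, but without array 5 these were -0.09 and 5, and without array 7 they were -0.16 and 6.

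Gbp3 had a signal of 175, 292 and 667 in fifth-hour controls and of 114, 148 and 307 in treated animals. The controls of arrays 5 and 7 (667 and 569.9) were the high ones, and the log2 fold change was -0.885 ± 0.26 (limma, adjusted p = 0.0123, lower on 7 of 8 arrays), and it was -0.65 without array 5 (0.0909) and -0.68 without array 7 (0.0722). Gbp2 had a signal of 179, 216 and 515 in controls and of 106, 164 and 262 in treated animals. The same controls, of arrays 5 and 7, were the highest, and the log2 fold change was -0.63 ± 0.20 (limma, adjusted p = 0.0175, lower on 6 of 8 arrays), and it was -0.49 without array 5 (0.0909) and -0.50 without array 7 (0.0827). Gbp4 had a signal of 99.97, 137 and 958 in controls and of 46.6, 86.7 and 361 in treated animals. Its controls of arrays 5 and 7, at 958 and 633, lay far above the median. Gbp4 had a log2 fold change of -1.05 ± 0.38 (limma, adjusted p = 0.0439, lower on 6 of 8 arrays). This call was lost without fifth-hour arrays 1, 5, 6 or 7 or first-hour array 5, with adjusted p of 0.2 and 0.198 (log2 fold changes -0.76 and -0.75) without arrays 5 and 7 and from 0.0501 to 0.0771 for the others.

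On slides 1, 2 and 3, Gbp3 had mean log2 ratios of 0.31, -1.26 and -1.30, Gbp2 had -0.24, -0.70 and -0.82 and Gbp4 had -0.29, -1.40 and -1.20, and with the slide as a block the adjusted p was 0.0127, 0.0202 and 0.0478 (limma). The count of 4 was 0 without array 5 or array 7 and 2 without array 1 or array 6. It was 0 and 1 without slides 2 and 3. The share of all probes called in either direction was 18.1% with all arrays and 12.7 and 7.3% without these slides. Zbp1, a sensor of Z-form nucleic acids with a mean intensity of 39.1, had a log2 fold change of -0.35 (limma, adjusted p = 0.0445, lower on 7 of 8 arrays). Its call was lost without first-hour arrays 1 to 4 or fifth-hour arrays 1 to 7, with adjusted p from 0.05 to 0.28 and -0.21 without fifth-hour array 5, and a dimmer probe of it had the opposite sign (0.29, adjusted p = 0.246).

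The treated animals of fifth-hour arrays 1 and 2 were above every control for these genes. Irf7 had 102, 138 and 579 in treated animals, where the animals of arrays 2 and 1 had 579 and 553, beside 143, 193 and 276 in controls. Oas1a had 61.7, 81.6 and 292 in treated animals, where arrays 2 and 1 had 292 and 287, and 73.1, 141 and 174 in controls. The other 6 treated animals lay lower, so that the medians of both genes were below those of controls. Isg15 had 334, 424 and 805 in treated animals, with 805 and 719 for arrays 2 and 1, and 368, 481 and 592 in controls. Its log2 fold change was -0.03, that of Oas1a was -0.24 and that of Irf7 was -0.09, and none passed (limma, adjusted p = 0.948, 0.716 and 0.941). Over each array left out, Isg15 ran from -0.19 to 0.04, Oas1a from -0.47 to -0.06 and Irf7 from -0.35 to 0.04. Fifth-hour arrays 1 and 2 both lay on slide 1, which held no other fifth-hour array. There the mean log2 ratio was 0.78 for Isg15 and 1.07 for Oas1a, beside -0.31 and -0.42 on slide 2 and -0.29 and -0.92 on slide 3. On the first-hour and ninth-hour arrays of slide 1, treated animals lay from -0.16 to 0.24 around their groups' medians for the IFIT, OAS and Isg15 genes (median gene). A shift of the slide was not tested. Without fifth-hour array 2, Cmpk2 (-0.16, adjusted p = 0.0451) and Trim30a (-0.44, adjusted p = 0.0444) passed as lower. With all arrays, Cmpk2 had 899.8, 1065 and 1138 in controls and 746, 901 and 1126 in treated animals at this hour, and Trim30a had 54.4, 65.8 and 76.3 and then 38.2, 48.3 and 81.8.

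At the ninth hour, Irf1 was higher in treated animals, and the median of the 7 guanylate-binding proteins and immunity-related GTPases was 0.05, with 3 of them below 0. This median was the value of Irgm1, which was also the middle gene without array 7 (-0.02) and without array 8 (0.13). Of 48 members, 1 was called higher, Irf1, and 1 lower, Cxcl9 (limma, adjusted p under 0.05), with 1 and 4 at an unadjusted p under 0.05. Among all probes, 7.01% were called higher and 6.97% lower, so the members' share of 2.08% in each direction was below that background. Cxcl9, a chemokine, was not well above background in any animal of this hour, so no fold is given, and its call (adjusted p = 0.0419) was lost without ninth-hour arrays 2, 5, 6 or 8 (0.0697 to 0.118). The members' median was -0.125 and 35 of 48 were below 0, and without array 8 the median was 0.02.

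Irf1, the factor that interferon gamma raises first, had a signal of 692, 755 and 868 in controls and of 814, 855 and 954 in treated animals. The groups overlapped between 814 and 868. Its log2 fold change was 0.16 ± 0.06 (limma, adjusted p = 0.05, just under the threshold, higher on 8 of 8 arrays), with mean log2 ratios of 0.17, 0.15 and 0.14 on the 3 slides and an adjusted p of 0.058 with the slide as a block. This call was lost without first-hour arrays 1 to 5, fifth-hour arrays 1, 3 or 6 or ninth-hour arrays 1 to 7, with adjusted p from 0.0504 to 0.13 and log2 fold changes from 0.14 to 0.17. A dimmer probe of Irf1, with a mean intensity of 48.1, had 0.13 at this hour (adjusted p = 0.423).

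Several values of the ninth hour depended on the control animal of array 8 and the treated animal of array 7. Irf7 had a signal of 133, 189 and 1156 in controls and of 96.4, 164 and 324 in treated animals, and its log2 fold change was -0.58 (limma, adjusted p = 0.237, lower on 7 of 8 arrays). Isg15 had 389.7, 434 and 1617 in controls and 349, 393 and 791 in treated animals, with -0.22 (limma, adjusted p = 0.515, lower on 7 of 8 arrays). Rtp4 had 232, 274 and 1147 in controls and 162, 207 and 402 in treated animals, with -0.58 (limma, adjusted p = 0.115, lower on 7 of 8 arrays). In these 3 genes the highest control was that of array 8 and the highest treated animal that of array 7. Without array 8 the log2 fold changes were -0.25 for Irf7, -0.02 for Isg15 and -0.31 for Rtp4, and without array 7 they were -0.78, -0.40 and -0.74. Gbp4 had wide groups in both treatments, with 96.2, 128 and 537 in controls, where array 4 was the highest, and 72.7, 269 and 570.04 in treated animals. Its log2 fold change was 0.42 (limma, adjusted p = 0.468, higher on 5 of 8 arrays), and it was 0.23 without array 7 and 0.56 without array 6.

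**Figure D5:**
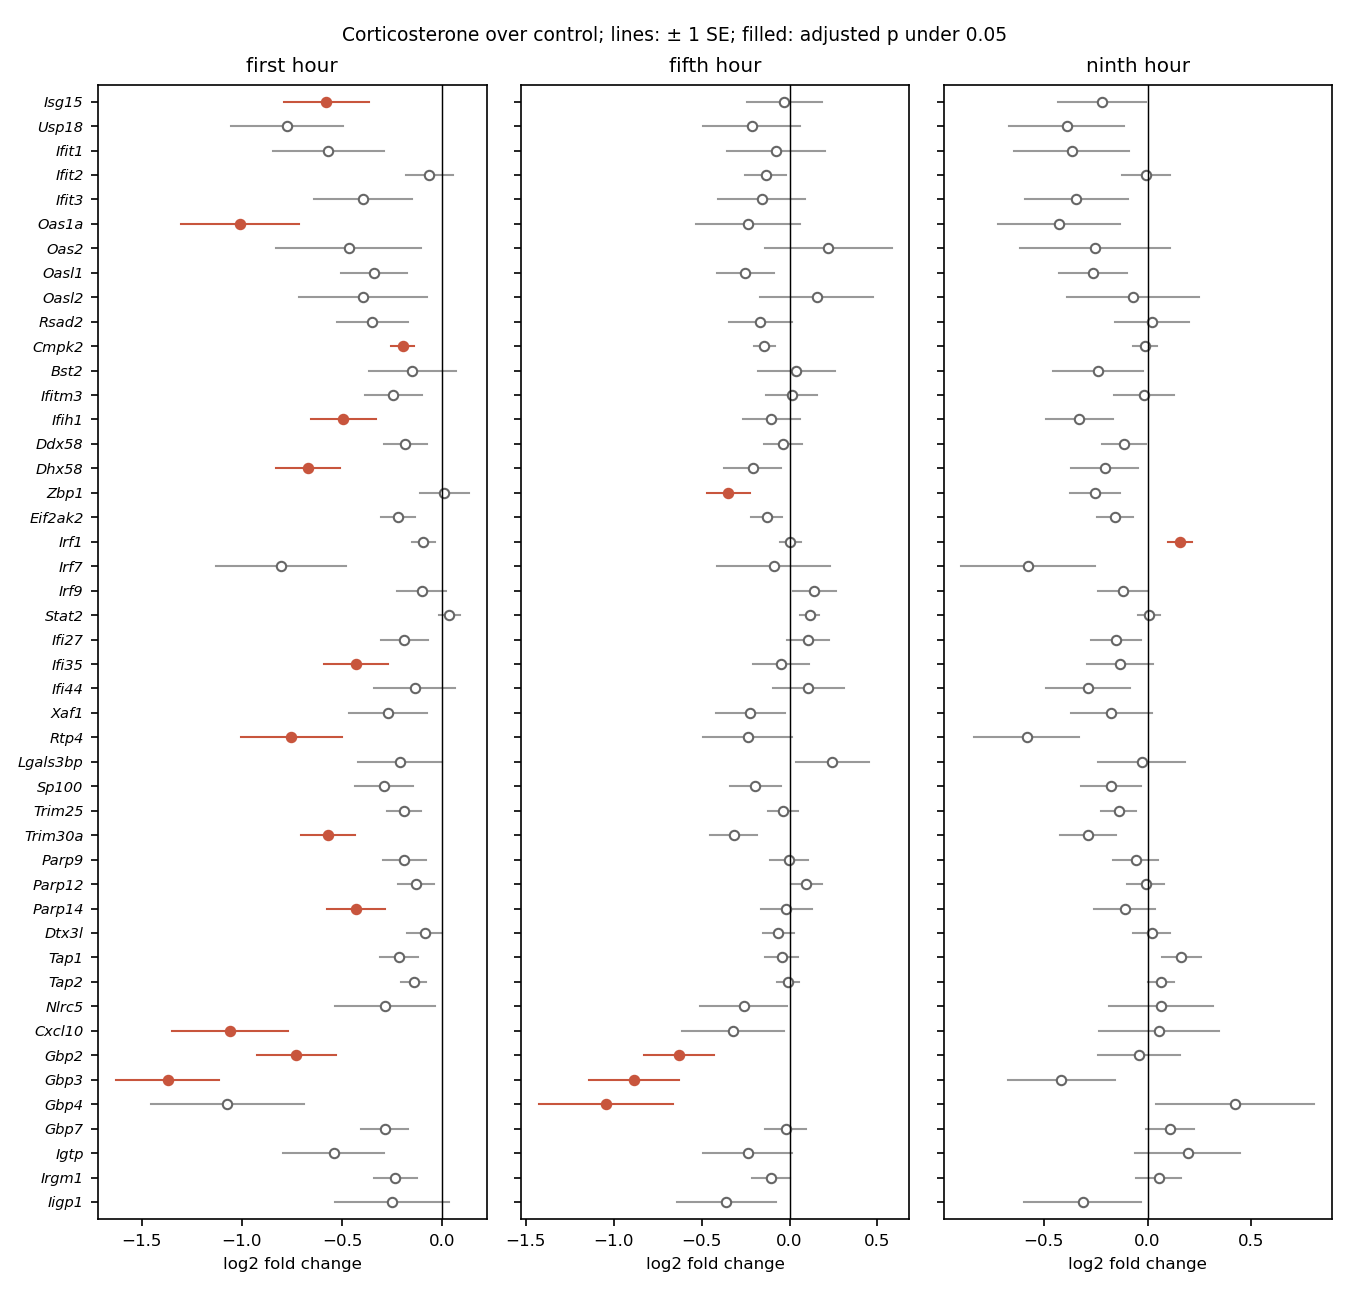
Log2 fold change of corticosterone over control (horizontal axes, lines ± 1 SE) at the first, the fifth and the ninth hour for 46 members in order of role, filled where the limma adjusted p was under 0.05; Oas3 and Cxcl9, not well above background, are not drawn. Filled dots are 12 at the first hour, 4 at the fifth and Irf1 (0.16) at the ninth.

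Whether the effect of corticosterone itself differed between hours was tested as a difference of effects. Of 48 members, 0 passed from the first to the fifth hour, from the first to the ninth or from the fifth to the ninth (limma), with 1, 10 and 2 at an unadjusted p under 0.05, and 0.0389, 0.827 and 0.083% of all probes were called. A call at 1 hour and not at another is therefore not shown to be a change for these genes. From the first to the ninth hour the members' median difference was 0.19, against 0.0013 over all probes. The smallest adjusted p was that of Irf1, 0.165, for a difference of 0.25 ± 0.08. Gbp4 had a difference of 1.49 ± 0.54 (limma, adjusted p = 0.523), Gbp3 one of 0.96 ± 0.36 (0.545) and Cxcl10 one of 1.12 ± 0.41 (0.413). For Tap1, the peptide transporter of MHC class I, it was 0.38 ± 0.13 (0.266).

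Within the treated animals, whose dye was the same at each hour, guanylate-binding proteins rose from the first to the ninth hour. From hour 1 to hour 9, 9 of 48 members changed (limma, adjusted p under 0.05), against 4.02% of all probes, with 17 at an unadjusted p under 0.05. Gbp2, Gbp3, Gbp4, Gbp7, Irgm1, Irf1, Tap1 and Cmpk2 rose and Stat2 fell, and the members' median was 0.23. From the first to the fifth hour 0 members passed (8 at an unadjusted p under 0.05; 0.546% of all probes), and from the fifth to the ninth hour 1 did, Stat2 (4 at an unadjusted p under 0.05; 0.666% of all probes). These comparisons use the treated animals of the comparisons with controls, so they are other views of the same measurements. The difference of effects between these hours passed for none of these members. A change particular to treated animals is therefore not shown. Further probes of these genes did not all pass from the first to the ninth hour, with an adjusted p of 0.842 for Irf1, 0.359 for Tap1 and 0.158 for Stat2, each with a mean intensity under 50, and of 0.155 and 0.0306 for probes of Irgm1 with mean intensities of 231.8 and 80.1.

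Gbp4 had a signal of 27.4, 49.8 and 126 in treated animals of the first hour and of 72.7, 269 and 570.04 in those of the ninth. All 8 ninth-hour animals were above the first-hour median and 5 above its highest animal, a log2 fold change of 1.95 ± 0.44 (limma, adjusted p = 0.00877). Gbp2 went from 79.5, 111 and 149.9 to 127, 262 and 376, and 7 of 8 animals were above the highest first-hour animal (log2 fold change 1.04 ± 0.23, limma, adjusted p = 0.0038). For Gbp3 the signals were 71.7, 101 and 127 and then 126, 250.1 and 391, again with 7 of 8 above the highest (log2 fold change 1.22 ± 0.30, limma, adjusted p = 0.0163). Gbp7 had 73.5, 84.4 and 96.3 and then 91.5, 122 and 169.9, with 7 of 8 animals above the earlier group. Gbp7 had a log2 fold change of 0.55 ± 0.14 (limma, adjusted p = 0.00764).

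Irgm1, an immunity-related GTPase that steers autophagy, had 220.5, 235 and 256 and then 269, 299 and 367. The groups did not overlap. The log2 fold change was 0.40 ± 0.13 (limma, adjusted p = 0.0459), and the call was lost without first-hour arrays 1 to 7, fifth-hour arrays 1 or 4 or ninth-hour arrays 1, 2, 3, 4 or 7 (adjusted p from 0.0503 to 0.104). Irf1 had 628, 723 and 782 at the first hour and 814, 855 and 954 at the ninth, also without overlap, with a log2 fold change of 0.27 ± 0.07 (limma, adjusted p = 0.00672). Tap1 had 133, 166 and 191 and then 154, 226 and 287. For it 7 of 8 ninth-hour animals were above the first-hour median, and the log2 fold change was 0.41 ± 0.11 (limma, adjusted p = 0.0119). Cmpk2 had 733, 800.4 and 986 and then 865, 929 and 1108, and all 8 ninth-hour animals were above the first-hour median. Its log2 fold change was 0.21 ± 0.07 (limma, adjusted p = 0.0474), and the call was lost without first-hour arrays 1, 3, 4, 6 or 7, fifth-hour arrays 5, 6 or 8 or ninth-hour arrays 1, 3, 4, 5 or 7 (adjusted p from 0.0503 to 0.138) and with the slide as a block.

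Further members did not pass from the first to the ninth hour in treated animals but did with 1 array left out. Igtp went from 119.7, 150.2 and 254 to 165, 302 and 553 (log2 fold change 0.87, limma, adjusted p = 0.0845, and 0.0419 without fifth-hour array 5). Ifitm3, a membrane protein that blocks virus entry, went from 454, 531 and 649.97 to 562, 767 and 961 (0.50, adjusted p = 0.0737, down to 0.026 without first-hour array 8, and under 0.05 too without fifth-hour array 2 or ninth-hour array 5). Tap2, the partner of Tap1, went from 875, 965 and 1075 to 964, 1107 and 1386 (0.22, adjusted p = 0.0545, and from 0.0296 to 0.0494 without first-hour array 4, fifth-hour arrays 2 or 7 or ninth-hour arrays 3 or 5). Without first-hour array 8, Eif2ak2 and Cxcl10 passed as well (0.0352 and 0.0336), whose ninth-hour signals were 149, 167 and 179 and 46.9, 64.6 and 77.3, with 0.30 and 1.12 over all arrays (adjusted p = 0.0779 and 0.069).

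Stat2, a subunit of the factor that type I interferon activates, went the other way. Treated animals had 1111, 1233 and 1642 at the first hour, 1152, 1276 and 1462 at the fifth and 946, 1083 and 1181 at the ninth. All 8 ninth-hour animals were below the medians of both earlier hours. The log2 fold change was -0.25 ± 0.06 from the first to the ninth hour (limma, adjusted p = 0.00668) and -0.27 from the fifth to the ninth (limma, adjusted p = 0.0138). Without slide 1 the count of 9 members was 0 and without slide 3 it was 2, and the call of Stat2 from the fifth to the ninth hour was lost without each slide. Slide 1 held 2 first-hour and 4 ninth-hour arrays and slide 3 held 3 and 2, so hour and slide are partly joined. First-hour array 8 and ninth-hour arrays 7 and 8 all lay on slide 3.

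Control animals gave a reference for the time of day. Between hours, 0 of 48 members passed in controls from the first to the fifth, from the first to the ninth or from the fifth to the ninth hour (limma), with 2, 3 and 2 at an unadjusted p under 0.05, against 0.0053, 0.537 and 0.0336% of all probes. From the first to the ninth hour the members' median was 0.08 in controls, with 12 of 48 below 0. In treated animals it was 0.23, with 4 of 48 below 0. The smallest adjusted p was that of Stat2 from the first to the ninth hour, 0.0671, with 1101, 1238 and 1366 at the first hour and 974, 1034 and 1179 at the ninth. All 8 ninth-hour controls were below the first-hour median and the log2 fold change was -0.22, close to that of treated animals. It passed without first-hour arrays 4 or 5 or fifth-hour array 7, where the lowest adjusted p was 0.0396.

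The 48 measured members had 70 probes in all, and 19 members had several. For some of them the probes disagreed. A dimmer probe of Stat2, with a mean intensity of 48.3, was higher in treated animals at the first hour by 0.36 (limma, adjusted p = 0.0151), while the brightest had 0.03 (0.688). A dimmer probe of Irf7, with a mean intensity of 30.9, had a log2 fold change of -0.03 at the first hour (adjusted p = 0.817), beside -0.81 for the brightest.

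The genes around the response were followed in lists by role. At the first, the fifth and the ninth hour, 8.84, 8.62 and 7.01% of all probes were called higher and 8.67, 9.47 and 6.97% lower, and several counts of these lists are near those shares. Of 8 measured interferon genes, 6 were dim, and 0 were called higher and 2 lower at the first hour, 0 and 2 at the fifth and 1 and 2 at the ninth. Of 6 receptor chains, Il10rb, a chain of the interferon lambda receptor, was lower at the first hour (log2 fold change -0.32, limma, adjusted p = 7.8e-05, 7 of 8 arrays) and at the fifth (-0.22, adjusted p = 0.00571, 7 of 8 arrays), and Ifngr2, a chain of the interferon gamma receptor, was higher at the ninth by 0.22 (adjusted p = 1.6e-04, 8 of 8 arrays). Counts for Janus kinases, STATs and IRFs outside the members are not given. Irf8, a factor of microglia and other myeloid cells, was higher at the fifth hour by 0.34 (limma, adjusted p = 2.0e-04, 8 of 8 arrays), and at the ninth, by 0.25 (adjusted p = 0.00769, 7 of 8 arrays). Of 8 inhibitors, 2 were higher and 0 lower at the first hour, 1 and 0 at the fifth (Pias1, by 0.15, adjusted p = 0.0177, 6 of 8 arrays) and 0 and 0 at the ninth. Those of the first hour were Pias1, a SUMO ligase, by 0.19 (limma, adjusted p = 0.00279, 7 of 8 arrays), and the phosphatase Ptpn11, by 0.15 (adjusted p = 0.00891, 8 of 8 arrays).

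Of 11 sensor adaptors and kinases, 2 were higher and 1 lower at the first and at the fifth hour and 2 higher and 0 lower at the ninth. Sting1, the adaptor of DNA sensing, was lower at the first hour (-0.36, limma, adjusted p = 2.9e-05, 8 of 8 arrays), while Ticam1, the adaptor of TLR3, was higher by 0.31 (adjusted p = 5.0e-04, 8 of 8 arrays) and Mavs, that of the RNA sensors, by 0.14 (adjusted p = 0.00672, 7 of 8 arrays). Of 35 measured further interferon-induced genes, 1 was higher and 6 lower at the first hour, 3 and 1 at the fifth, and 1 and 1 at the ninth, with medians of -0.16, -0.08 and 0.0026. At the first hour Tnfsf10, the death ligand TRAIL, was lower (log2 fold change -0.78, limma, adjusted p = 0.00244, 8 of 8 arrays) and Uba7, the enzyme that activates ISG15, was lower too (-0.46, adjusted p = 0.00203, 8 of 8 arrays). Helz2, a helicase, was higher there by 0.28 (limma, adjusted p = 4.4e-04, 8 of 8 arrays). Of 8 genes of MHC class I and the immunoproteasome, 0 were called in either direction at each hour. In treated animals between the first and the ninth hour, however, Psmb8 and Psmb9, immunoproteasome subunits, rose by 0.65 and 0.59 (limma, adjusted p = 0.0206 and 0.0283), in the same direction as Tap1.

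Markers of cell types were measured in the same hippocampi, and their counts stand beside the shares of all probes given above. Counts and sums of the oligodendrocyte list are not given. Of 10 microglial markers, 0 were higher and 3 lower at the first hour (Aif1, Cx3cr1 and P2ry12), 1 and 3 at the fifth and 0 and 2 at the ninth. Aif1, a microglial calcium-binding protein, was lower at the first hour (log2 fold change -0.44, limma, adjusted p = 0.00128, 8 of 8 arrays). Of 9 endothelial markers, 2 were higher and 5 lower at the first hour, 1 and 2 at the fifth and 2 and 1 at the ninth, and Flt1, a receptor of VEGF, was lower at the first hour (-0.61, limma, adjusted p = 1.5e-08, 8 of 8 arrays). Higher and lower calls at the first, the fifth and the ninth hour were 2 and 1, 2 and 2, and 2 and 2 of 8 for astrocytes, 0 and 1 of 6 at each hour for pericytes and smooth muscle, 0 and 0, 3 and 0, and 2 and 0 of 7 for neurons, and 1 and 0, 0 and 0, and 1 and 0 of 7 for hippocampal neurons. They were 0 and 1, 0 and 1, and 0 and 0 of 6 for T and NK cells and 1 and 1, 0 and 1, and 0 and 0 of 7 for monocytes and neutrophils. For choroid plexus, B cells and red blood cells they were 0 and 0 at each hour, of 6, 3 and 2 measured genes. Cd8a, Gzmb and Ccr2, defining markers of T cells and monocytes, were not well above background. The part of any of these cell types in the members' values was not tested.

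The summed marker levels of the animals that stood apart are given beside the results that rest on them. In the control of first-hour array 8, the sum was the highest of 8 controls for endothelial cells (20880.5, from 17407 up, most of it Ly6c1), monocytes and neutrophils (6566, from 4832 up, most of it Ly6c2) and red blood cells (32479, from 18281 up, Hba-a1), and the lowest for neurons (135402, up to 144970.0, Snap25) and astrocytes (102523, up to 126435, Aldoc). In between lay microglia (46277, range 40762 to 52577, Itgam), T and NK cells (1244, range 1066 to 1622, Cd4), B cells (149, range 131 to 185, Ms4a1), pericytes and smooth muscle (11099, range 10501 to 11280, Acta2), hippocampal neurons (38614, range 34363 to 42338, Zbtb20) and choroid plexus (1387, range 948 to 1682, Kl). In the control of ninth-hour array 8, the sum was again the highest for endothelial cells (20837) and for monocytes and neutrophils (6519), and it was also the highest for astrocytes (123292), which were the lowest in the other animal, and for pericytes and smooth muscle (13436). Choroid plexus was the lowest (1024), while the sum of microglia was 49098 (range 44023 to 54612) and that of T and NK cells was 1344 (range 1084 to 1627). In the treated animals of fifth-hour arrays 1 and 2, microglial sums were 47862 and 53238 (range 47862 to 57422) and those of T and NK cells 1451 and 1664 (range 1129 to 1664). The animal of array 2 also had the highest sums for red blood cells (35855), B cells (186) and neurons (153624) and the lowest for astrocytes (118182) and pericytes and smooth muscle (10839.0), and that of array 1 the lowest for hippocampal neurons (36566) and choroid plexus (1109). In the controls of fifth-hour arrays 5 and 7, endothelial sums were 19365 and 22623 (range 17989 to 22623) and microglial sums 46581 and 51521 (range 41684 to 53702). Array 5 had the highest control for monocytes and neutrophils (6715) and the lowest for B cells (127) and hippocampal neurons (35914), and array 7 had the highest for T and NK cells (1455), red blood cells (36735) and astrocytes (126254). At the ninth hour, the control of array 4 was the highest for T and NK cells (1627), and the treated animal of array 7 was the lowest for T and NK cells (1177) and the highest for B cells (183). The treated animal of fifth-hour array 8 was the highest for monocytes and neutrophils (6137) and the lowest for T and NK cells (1129), B cells (138) and red blood cells (19500.0). The treated animal of first-hour array 4 was the highest for monocytes and neutrophils (7725) and for choroid plexus (1558). That of first-hour array 8 was the highest for astrocytes (138653) and B cells (191). It was the lowest for microglia (44404), pericytes and smooth muscle (9425), neurons (128460) and hippocampal neurons (31697). The treated animal of ninth-hour array 4 was the lowest for choroid plexus (1104). A sum can follow its brightest gene alone, so it is no count of cells. Whether Ly6c1 and Ly6c2 themselves respond to interferon in these animals was not tested. The part of these markers in the signals of the interferon-stimulated genes was not tested either.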

How the data were processed

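Scanner files of Agilent's Feature Extraction software, deposited by the authors, give unnormalized median intensities of every spot and its surroundings for Cy3 and Cy5, with the software's marks for outlier spots and for signal well above background. A deposited table of the authors holds log2 ratios (Cy5 to Cy3) for probes on each array. Set against ratios from normexp, an offset of 50 and loess they differed by 0.00121 (median, absolute), and by 0.0101 once quantile normalization was added, and the table's medians per array ran from 0.0024 to 0.0089.

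Intensities were analysed in R 4.3.3 with limma 3.58.1, statmod 1.5.0, data.table (1.17.8) and jsonlite 2.0.0, and figures were drawn with Python 3.11.15, matplotlib 3.10.9 and numpy 2.4.6. Background correction was normexp, where p values come from a fit with offset 50 while fold changes, standard errors and printed signals come from one with offset 0, then loess within arrays (3671 control spots at weight 0, left out afterwards) and quantile normalization between them. Outlier spots, 80 to 276 of the 62976 spots of an array, were taken as missing, so 77 probes lacked a value somewhere. In limma, lmscFit took the 48 channels as 6 groups and used an intraspot correlation of 0.279, which pairs the animals of an array, and p values were adjusted over 56605 probes by Benjamini and Hochberg, with a threshold of 0.05. The intensities of 24572 probes averaged under 50. Accessions named 34566 probes, and a gene was read from its brightest probe. The fit with lmscFit, its intraspot correlation and the adjustment of p values were tested on simulated normalized values. The steps before the fit and the naming of probes were not.

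The members and all lists were chosen with earlier results of these data known. Values by group are given for members called at any hour with a mean intensity of 50 or more, for those where 1 array decides a call or probes disagree, and for up to 4 genes of each further list. The lists were corticosterone-responsive genes, interferon ligands, receptors, Janus kinases with STATs and IRFs, inhibitors, sensor adaptors and kinases, further interferon-induced genes, MHC class I with the immunoproteasome, and markers of microglia, astrocytes, endothelial cells, pericytes and smooth muscle, neurons, hippocampal neurons, oligodendrocytes, choroid plexus, T and NK cells, B cells, monocytes and neutrophils, and red blood cells. Ifnl2, Ifi203, Tgtp1, Ifitm2, Cxcl11, Oas1b, Psme2 and Hbb-bs were not matched to a probe.

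Alternatives were other offsets, no background correction, median centring, Aquantile, the scanner software's processed signals, probe filters (mean intensity 50 or more, or well above background in 8 channels), an intensity trend, the slide as a block, each slide or array left out, values within slides, a test on log ratios, the authors' log2 ratios and the mean over a gene's probes.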

Additional observations from a re-analysis of the deposited data

Results flagged for a closer look

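For each of the 40 members with a mean intensity of 50 or more, the 8 log2 ratios of an hour were searched for an array whose gap to the nearest other array was large against the whole range (Dixon's test), in 120 groups of arrays. Chance gives about 1 in 20 groups, and 33 were found, on 3 arrays. The groups of an hour share the same animals and their genes vary together, so they are not independent and these numbers are no test. On first-hour array 8 there were 16. Its log2 ratio was 0.29 for Stat2, -2.76 for Ifit1, -1.39 for Ifit3, -2.40 for Oas1a, -2.22 for Oas2 and -2.00 for Oasl2. It was -1.37 for Rsad2, -1.08 for Ifitm3, -1.18 for Gbp7, -0.83 for Irgm1 and -4.05 for Cxcl10. It was -0.54 for Trim25, -0.96 for Parp9, -0.77 for Ifi27, -2.13 for Rtp4 and -1.61 for Lgals3bp. On ninth-hour array 8 there were 14. Its log2 ratio was -2.85 for Irf7, -0.98 for Irf9, -0.81 for Ddx58, -2.23 for Ifit1, -2.66 for Oas1a, -2.92 for Oas2 and -1.98 for Oasl2. It was -1.16 for Trim30a, -0.83 for Ifi27, -1.24 for Ifi35, -1.61 for Xaf1, -2.46 for Rtp4, -1.43 for Lgals3bp and -1.54 for Sp100. On fifth-hour array 2 there were 3, with log2 ratios of 0.61 for Ddx58, 0.76 for Parp9 and 0.58 for Dtx3l.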

How the results depend on the processing

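With the slide left out in turn (slides 1, 2 and 3), the 12 members called lower at the first hour became 7, 3 and 3, and over each array left out the count ran from 4 to 15. The 4 called lower at the fifth hour became 2 with Aquantile, 2 with the processed signals, 0 without slide 2, 1 without slide 3 and 0 without fifth-hour arrays 5 and 7 together, and ran from 0 to 5 over each array left out. The 0 called higher at the fifth hour became 1 with the processed signals and 1 with the authors' log2 ratios. The 1 called lower at the ninth hour, Cxcl9, became 0 with no background correction, Aquantile, both filters, each slide left out, ninth-hour arrays 7 and 8 left out, the test on log ratios, in which the animals of an array are paired, and the authors' ratios. The 1 called higher there, Irf1, became 0 with an offset of 0 for p values, median centring, the intensity trend, the slide as a block, each slide left out, and without fifth-hour arrays 1 and 2 or ninth-hour arrays 7 and 8. Each of these ninth-hour counts ran from 0 to 1 over each array left out. With the processed signals, 1 member passed when effects at hours 1 and 9 were compared, and 2 passed in controls from the first to the ninth hour (0 to 1 over each array left out). The 9 called in treated animals from the first to the ninth hour became 0 without slide 1, 2 without slide 3 and 4 without ninth-hour arrays 7 and 8, with 7 to 12 over each array left out, and the 1 from the fifth to the ninth hour became 0 without each slide. The other counts of members kept their side under the alternatives run. Fewer arrays enter where slides or arrays are left out; otherwise the cause was not tested. Keeping outlier spots and leaving out pairs of arrays were chosen after seeing the data.

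Within slides, Gbp3 at the fifth hour was above 0 on slide 1 (0.31, called -0.885), and no other called value of a member at an hour reversed its sign. Mbp, a myelin gene, was 0.17 at the ninth hour by its brightest probe, and the mean over its 3 probes was -0.0196. The median of all probes moved by less than 0.1 in every setting. Dim spots limit Cxcl9, Oas3, Usp18, Dhx58, Zbp1, Oasl1, Nlrc5 and Ifi44, for which small differences lie close to background.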
